A study of Mus musculus with 10 samples.

Results

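The change in transcript levels from pro-B cells to small pre-B cells was measured in mice with a blood cell knockout of Mta2. The comparison used 5 of the 10 RNA-seq samples of the series: every library with the genotype Mta2_VavKO, 3 from small pre-B cells and 2 from pro-B cells. All genes with enough counts entered the comparison. The cells came from bone marrow of C57BL/6 mice. Pro-B cells were sorted as B220+ IgM- CD43+ cells, and small pre-B cells as B220+ IgM- CD43- cells of small size. The genotype name points to deletion driven by Vav, a promoter active in blood cells in general, so other blood cells of these mice can lack the gene as well and the label does not limit the loss to B cells. The control libraries, 2 of pro-B and 3 of small pre-B cells with the genotype Control, share no sample with the knockout (KO) groups and served as their reference. They entered the same fit, which takes its spread from all 10 libraries.

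B cells are made in the marrow in steps. Pro-B cells rearrange the immunoglobulin heavy chain gene with the RAG recombinase, and a heavy chain that pairs with the surrogate light chain forms the pre-B cell receptor. Signals from that receptor and from the interleukin-7 receptor drive a burst of division in large pre-B cells, which then stop cycling, become small and rearrange a light chain gene. Mta2 belongs to NuRD, the nucleosome remodelling and deacetylase complex, which combines a remodelling ATPase with histone deacetylases and works with lymphoid transcription factors such as Ikaros.

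Depth differed with stage. The KO pro-B libraries held 52011415 and 48988304 counts, and the KO small pre-B libraries 17805507, 25821264 and 22228725. A count of 3 corresponded to between 0.0546 and 0.173 CPM, the reads of a gene per 1000000 reads counted, in these libraries. Levels are CPM after TMM scaling (trimmed mean of M values), in the order of the replicate numbers, and they are not divided by gene length. The first principal component of all 10 libraries held 74.1% of the variance and separated the stages. The labels do not say which animals, ages, sexes, days or sequencing runs the libraries came from, so a p-value here covers the library-to-library spread, which may be technical. The file headers place the pro-B libraries in another data folder than the small pre-B libraries, so stage and handling cannot be told apart.

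Mta2 (chr19:8941920-8952300 in mm10, plus strand) was read at 162 and 166 CPM in the KO pro-B libraries and at 199, 179 and 198 CPM in the KO small pre-B libraries. Controls read 436 and 375 CPM and 438, 246 and 412 CPM. Every KO library was below every control library of either stage. Within the KO, the stages did not differ past the threshold (log2 fold change 0.23 ± 0.21, SE here and below; adjusted p = 0.40). The counts cover all exons of the gene, and which exons are deleted was not analysed here. RNA from the sex chromosomes split the small pre-B KO libraries. Xist, the RNA that silences an X chromosome in females, read 2518, 2941 and 7.92 CPM in small pre-B and 0.455 and 0.634 CPM in pro-B. The Y-linked gene Eif2s3y read 1.73, 0.0395 and 215 CPM in small pre-B and 87.2 and 109 CPM in pro-B. The first and second small pre-B KO libraries were thus high in Xist and low in Y-linked RNA, and the third and both pro-B KO libraries were the reverse.

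The files list 23420 genes, and 14161 of them passed the filter on low counts. In the KO comparison 3395 genes were higher in small pre-B cells (24.0% of those tested) and 3866 were lower (27.3%), by edgeR's quasi-likelihood test with a Benjamini-Hochberg adjusted p below 0.05. Among the genes called, 1530 were higher and 2775 lower by at least 1 on the log2 scale, and 204 were higher and 1107 lower by at least 3. The KO groups did not overlap, in either direction, in 10742 genes (75.9%) and in 7254 of the 7261 genes called. The median log2 fold change of all genes tested was -0.02, with a median SE of 0.22. The controls in the fit also shape its count filter and its spread. With the KO groups fitted alone, 3835 genes were higher and 4071 lower. Without the third small pre-B control the counts were 4184 and 4473. Without the first pro-B library the higher calls numbered 2152, and without the second 2032, and these fits take the spread of the lone pro-B library from the other groups. With the libraries high in Y-linked RNA alone, which leaves the third small pre-B KO library against both pro-B KO libraries, 2496 genes were higher and 3086 lower.

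Markers of other blood cells were far higher in the pro-B KO libraries than in the small pre-B KO libraries and are given before the other gene groups. All 15 myeloid and granulocyte markers tested fell, against 27.3% of all genes, with a median log2 fold change of -6.07. Their summed level was 16318 and 24041 CPM in pro-B and 488, 385 and 224 CPM in small pre-B. S100a9, a granulocyte calcium-binding protein, was at 3988 and 6160.1 CPM in pro-B and 92, 72.9 and 22.5 CPM in small pre-B. Mpo, the myeloperoxidase of granule-bearing cells, read 651 and 1241 CPM and 31.9, 13.2 and 4.33 CPM. No value of either gene in small pre-B came near the pro-B values, and none was at 0.

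Markers of plasmacytoid dendritic cells, the interferon-producing cells that carry B220, fell in 8 of 9 cases (88.9%, against 27.3% of all genes). Their median was -6.36. Siglech, their defining surface lectin, was at 1744 and 1893 CPM in pro-B and at 0.865, 10.9 and 0.839 CPM in small pre-B (log2 fold change -8.71 ± 1.14; adjusted p = 3.08e-04). Among the small pre-B libraries the second was the highest for Siglech, and all were far below pro-B. The dendritic cell lectin Cd209a read 25.9 and 25.1 CPM in pro-B and 0, 0.0395 and 0 CPM in small pre-B. That was 1 count in small pre-B against 2686 in pro-B, a ratio of 1634 (95% interval of the counts, 293 to 64549). The summed level of the plasmacytoid list was 4652 and 4958 CPM in pro-B and 474, 548 and 875 CPM in small pre-B, where most of what was left came from Ly6d, which B cell precursors also express, and Cox6a2. Klk1, Cd209a and Cd209d were at 0 in the first and the third small pre-B libraries.

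Natural killer markers fell in 6 of 10 cases (60%, median -2.21), T cell markers in 6 of 13 (46.2%, median -1.29) and erythroid markers in 4 of 7 (57.1%, median -1.97). Over all genes tested 27.3% fell. The summed T cell list was at 691 and 617 CPM in pro-B and 132, 201 and 139 CPM in small pre-B. The natural killer sums were 693 and 449 CPM and 107, 195 and 104 CPM, and the erythroid sums 61 and 19.7 CPM and 35.9, 8.10 and 1.91 CPM, which overlapped. Cd4, a co-receptor of T cells that plasmacytoid dendritic cells also carry, fell from 313 and 288 CPM to 0.173, 4.62 and 0.186 CPM. Cd3e, a defining subunit of the T cell receptor complex, was at 14.8 and 19.9 CPM in pro-B and 8.13, 16.6 and 5.41 CPM in small pre-B, overlapping and not called (adjusted p = 0.25). Of these lists the natural killer calls varied most: their number was 0 without the first pro-B KO library, 2 without the second, 1 without the first or the third small pre-B KO library, 3 without either pro-B control and 10 without the third small pre-B control. Erythroid calls fell to 1 without the first pro-B or the second small pre-B library, and to 2 without the third small pre-B library or either pro-B control. In bulk RNA, fewer cells of a type and less RNA per cell cannot be told apart. These marker levels moved with every gene group below that fell, and their part in those results was not tested.

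**Figure D1:**
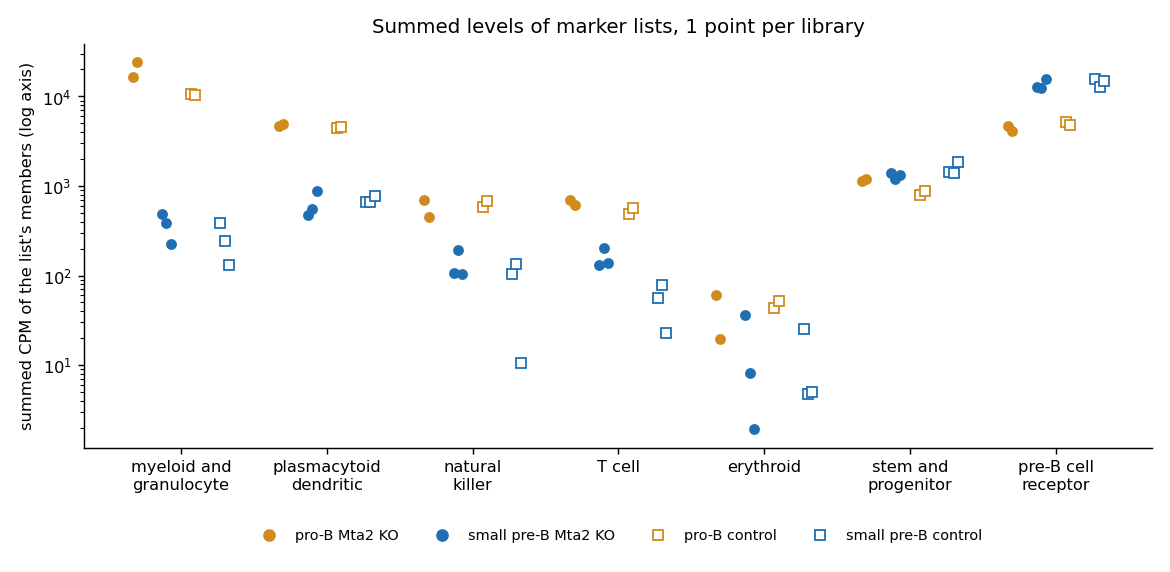
Summed CPM of the tested members of each marker list (log axis), 1 point per library; circles are Mta2 KO, squares controls, orange pro-B and blue small pre-B. The 2 pro-B KO libraries sit above every small pre-B KO library in the myeloid, plasmacytoid dendritic, natural killer and T cell lists, and below them in the pre-B cell receptor list. The stem and progenitor sum is carried in small pre-B by Cd93.

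Stem and progenitor markers fell in 7 of 9 cases (77.8%, against 27.3% of all genes). Flt3, the cytokine receptor of early progenitors, was at 304 and 445 CPM in pro-B and 2.42, 3.56 and 0.886 CPM in small pre-B, a log2 fold change of -7.34 ± 0.47 (adjusted p = 6.61e-06). Cd34, a surface mucin of progenitors, went from 12.4 and 26.3 CPM to 0.0577, 0.198 and 0 CPM, and Hoxa9, a progenitor homeobox factor, from 4.93 and 7.83 CPM to 0.173, 0.237 and 0.466 CPM. Spn, which encodes the CD43 of the sorting gate, was at 461 and 515 CPM in pro-B and 146, 100 and 89.3 CPM in small pre-B (log2 fold change -2.13 ± 0.21; adjusted p = 5.03e-05), so the RNA followed the gate. Kit, the stem cell factor receptor of pro-B cells, was at 65.2 and 64.6 CPM and 81.9, 50.9 and 36.3 CPM. Its groups overlapped and the change was not called (log2 fold change -0.20 ± 0.48; adjusted p = 0.75). Cd93, which marks immature B cells as well as progenitors, rose from 324 and 267 CPM to 1272, 1088 and 1241 CPM.

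Among genes with a mean of at least 10 CPM in the higher group and no overlap between groups, the largest rise after Xist was in Klhl14, from 2.67 and 1.94 CPM to 83.5, 106 and 135 CPM (log2 fold change 5.55 ± 0.30; adjusted p = 3.86e-06). Ms4a1, the CD20 antigen of B cells (chr19:11250603-11266151), rose from 3.95 and 2.80 CPM to 88.6, 139.9 and 213 CPM (log2 fold change 5.45 ± 0.49; adjusted p = 3.28e-05). The third small pre-B library was the highest for both genes, and the lowest small pre-B value was still far above pro-B. Next in size came Col5a3, a collagen chain, at 5.11 on the log2 scale, Cacna2d1, a calcium channel subunit, at 4.95, Lipc, the hepatic lipase, at 4.80, and Trim63, a ubiquitin ligase known from muscle, at 4.73. Trim63 lost its call when the first or the second pro-B library was left out (adjusted p = 0.095 and 0.14). Mpzl2, Islr2, Gh (growth hormone), Etnk2 (an ethanolamine kinase) and Irs1 (an insulin receptor adaptor) rose by 4.64, 4.63, 4.48, 4.42 and 4.39. Xist itself passed the threshold with edgeR (log2 fold change 11.70 ± 2.99; adjusted p = 0.012) but not with limma-voom (9.48; adjusted p = 0.24). It was high in the 2 libraries low in Y-linked RNA. Without them its change was 3.86 (adjusted p = 0.10), without the first pro-B library its adjusted p was 0.091 and without the second 0.090.

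The largest falls were in genes that were almost absent from small pre-B cells. Pir (pirin) had 3479 counts over the pro-B KO libraries and 0 over the small pre-B KO libraries, at least 705-fold lower when the small pre-B group is set to 3 counts in all. Lama3, a laminin chain, had 1186 and 0 counts, at least 240-fold lower. Ctnnd2, a delta-catenin, had 2974 and 2 counts, a ratio of 904 (95% counting interval 250 to 7471), and Scrn1 had 1099 and 1, a ratio of 668 (120 to 26425). Bmx, a TEC-family kinase, had 1251 and 2 counts, a ratio of 380 (105 to 3145). The lectin Clec10a, the collagen receptor Ddr1, Adam11, the protease gene Prss30 and AI607873 had log2 fold changes of -8.88, -8.85, -8.71, -8.42 and -8.27. In all, 19 genes were above 10 CPM in pro-B KO and below 0.1 CPM in small pre-B KO, and 0 genes had the reverse pattern.

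Of 16 genes of the pre-B cell receptor and its signalling, 11 rose and 2 fell (68.75% and 12.5%, against 24.0% and 27.3% of all genes). Their median log2 fold change was 1.24 against -0.02 for all genes tested. Of the signalling chains, Cd79b was at 226 and 171 CPM in pro-B and 1259, 1261 and 1725 CPM in small pre-B (log2 fold change 2.83 ± 0.27; adjusted p = 3.80e-05). Cd79a was at 334 and 231 CPM and 1445, 1173 and 1650.2 CPM (log2 fold change 2.33). The small pre-B values of both chains were several times the pro-B values in every library. Among the kinases and adaptors, Blk rose from 90.0 and 76.3 CPM to 432, 504 and 538 CPM (log2 fold change 2.56), Syk, which binds the phosphorylated chains, by 1.47 and the adaptor Blnk by 1.36. The transcriptional repressor Bach2 rose from 212 and 173 CPM to 1511, 1893 and 1733 CPM (log2 fold change 3.15 ± 0.17; adjusted p = 3.86e-06). Fyn, a SRC-family kinase, was the main member to fall, from 511 and 474 CPM to 104, 109.7 and 76.4 CPM.

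Of the surrogate light chain, neither Igll1 nor Vpreb1 passed the threshold with edgeR on all libraries. Igll1, its lambda5 part, was at 239.5 and 168 CPM in pro-B and 462, 221 and 254 CPM in small pre-B, with overlapping groups (log2 fold change 0.62 ± 0.47; adjusted p = 0.30). Vpreb1, its variable-like part, was at 97.3 and 67.7 CPM and 261, 118 and 148 CPM. All small pre-B values of Vpreb1 were above pro-B, but the change did not pass (log2 fold change 1.09 ± 0.59; adjusted p = 0.15). Vpreb1 was called with the KO groups fitted alone (adjusted p = 0.031) and without the third small pre-B control (0.019). For both genes the first small pre-B library was the highest. The related gene Vpreb3, whose product associates with immunoglobulin chains in the cell, rose from 147 and 93.9 CPM to 830.3, 615 and 892 CPM (log2 fold change 2.69 ± 0.27).

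Vpreb3 and Blnk are shown here because the 150 bases before their start sites hold the octamer, the site read by the POU factors that Pou2af1 assists. The promoter sequences are from RefSeq (GRCm38.p6), 5′ to 3′ on the gene's strand, with the octamer, ATGCAAAT or its reverse complement, in capitals. Vpreb3 lies on the plus strand at chr10:75948150-75948299 and Blnk on the minus strand at chr19:40994222-40994371.
Vpreb3: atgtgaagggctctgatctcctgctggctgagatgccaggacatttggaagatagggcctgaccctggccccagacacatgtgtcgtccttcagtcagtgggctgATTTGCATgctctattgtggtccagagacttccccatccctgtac
Blnk: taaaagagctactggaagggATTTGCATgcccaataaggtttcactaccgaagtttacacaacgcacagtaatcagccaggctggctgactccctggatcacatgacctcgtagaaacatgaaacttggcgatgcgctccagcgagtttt
A promoter window of 250 bases before and 50 after the start was matched for 10381 of the 14161 genes tested. On either strand the octamer stood in 143 of these windows (1.38%). It was in 35 of 1102 genes that rose by at least 1 on the log2 scale (3.18%), in 28 of 2042 that fell by at least 1 (1.37%), and in 2 of 12 promoters of the pre-B cell receptor list. These shares are a description, and a match does not show that a factor is bound.

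Of 13 V(D)J recombination genes 4 rose and 2 fell (30.8% and 15.4%, against 24.0% and 27.3% of all genes tested). The risers were Rag1, Rag2, Xrcc6 and Lig4. Rag1 (chr2:101638252-101649532), the catalytic part of the recombinase, was at 255 and 162 CPM in pro-B and 2728, 3400.4 and 3545 CPM in small pre-B (log2 fold change 3.95 ± 0.35; adjusted p = 2.89e-05). Rag2 (chr2:101624748-101632528), its partner on the same chromosome, was at 69.8 and 42.2 CPM and 253, 255 and 365 CPM (log2 fold change 2.38 ± 0.26; adjusted p = 9.42e-05). No pro-B library reached the lowest small pre-B value of either gene. The end-joining genes Xrcc6, which encodes Ku70, and Lig4, the ligase, rose by 2.39 and 2.66. Dntt, the terminal transferase that adds bases at heavy chain joints, was at 812 and 649 CPM and 824, 311 and 419 CPM, overlapping and not called (log2 fold change -0.50 ± 0.62; adjusted p = 0.53). The chromatin proteins Hmgb1 and Hmgb2, which help RAG cut, fell. Hmgb2 was at 428 and 398 CPM and 308, 255 and 202 CPM (log2 fold change -0.69), and it lost its call without the first or the second pro-B library or the third small pre-B library (adjusted p up to 0.099). The falls in this list numbered 0 without the first or the second pro-B library or the third small pre-B library, and 1 without the first small pre-B library.

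**Figure D2:**
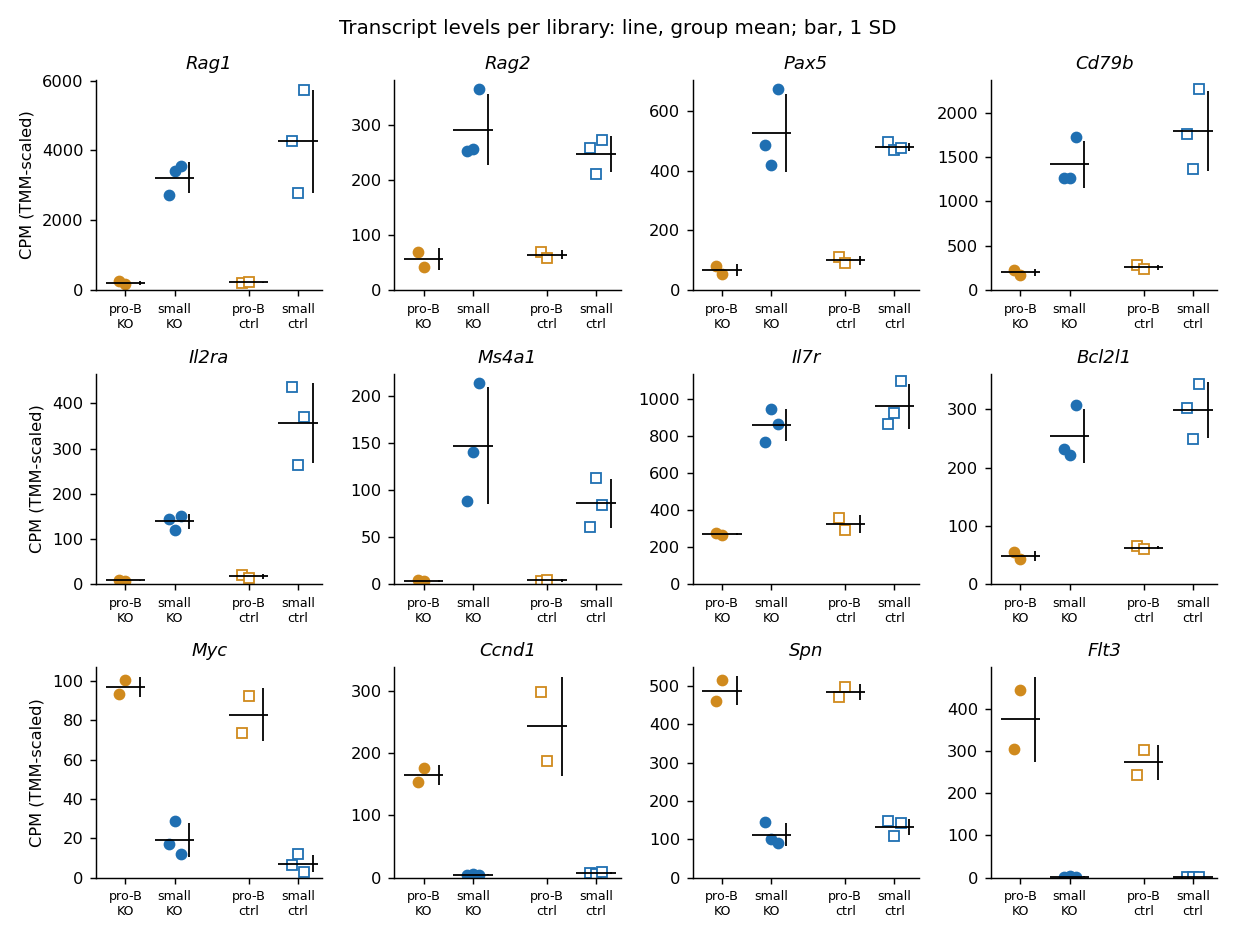
Levels of 12 genes in CPM (linear axes from 0), 1 point per library, with group means and 1 SD; filled circles are Mta2 KO, open squares controls, orange pro-B and blue small pre-B. In the KO, Rag1, Rag2, Pax5, Cd79b, Il2ra, Ms4a1, Il7r and Bcl2l1 are higher in all 3 small pre-B libraries than in both pro-B libraries, and Myc, Ccnd1, Spn and Flt3 are lower.

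Of 25 transcription factors of the B lineage, 16 rose and 5 fell (64% and 20%, against 24.0% and 27.3% of all genes), with a median of 1.30. Pax5, which holds cells to the B lineage, was at 82.2 and 53.1 CPM in pro-B and 486, 421 and 674 CPM in small pre-B (log2 fold change 2.96 ± 0.26; adjusted p = 2.65e-05). The third small pre-B library was the highest, and the pro-B values lay far below all of them. Ebf1, which acts ahead of Pax5, rose by 2.31, Tcf3 (the E2A factor) by 1.79, and Foxo1, which activates the Rag genes, by 2.13. Pou2af1, the octamer coactivator also called OcaB, rose from 417 and 295 CPM to 2702, 2690.1 and 3449.6 CPM (log2 fold change 3.05 ± 0.23; adjusted p = 1.28e-05), and Myb from 522 and 466 CPM to 2667, 2851 and 3312 CPM (log2 fold change 2.57). Of the Ikaros family, Ikzf1 rose by 1.06 and Ikzf3 (Aiolos) by 2.63 ± 0.23 (adjusted p = 2.51e-05). Ikzf2 (Helios) was at 21.9 and 25 CPM in pro-B and 14.2, 27.1 and 8.25 CPM in small pre-B, overlapping and not called (adjusted p = 0.34). Without the second small pre-B KO library Ikzf2 was called lower (log2 fold change -1.06; adjusted p = 0.032). Irf4, which acts with Spib and Sfpi1 (PU.1) on light chain enhancers, rose from 173 and 150.4 CPM to 1002, 1234 and 1197 CPM, and Spib rose by 1.72. Irf8, its relative, fell from 2619.5 and 2979 CPM to 205, 265 and 273 CPM (log2 fold change -3.50 ± 0.15; adjusted p = 1.88e-06). Irf8 is also a main factor of dendritic cells, whose markers fell with it, and the part of those markers in its fall was not tested.

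Of 18 genes of the interleukin-7 receptor pathway 7 were higher and 6 lower (38.9% and 33.3%, against 24.0% and 27.3% of all genes), with a median of -0.0037. Il7r, the receptor chain, was at 276 and 267 CPM in pro-B and 766, 944 and 865 CPM in small pre-B (log2 fold change 1.66 ± 0.16; adjusted p = 4.38e-05). Stat5a, the signal transducer, fell from 89.4 and 104 CPM to 43.7, 46.6 and 35.3 CPM. The feedback inhibitors parted: Socs1 rose by 1.78, while Socs3 fell by 2.56 on the log2 scale. Socs2 was at 19.1 and 16.3 CPM and 105, 98.2 and 73 CPM (log2 fold change 2.38), and without the first or the second pro-B library its call was lost (adjusted p = 0.056 and 0.077). Without the first pro-B library the pathway's higher calls numbered 3, and without the second its lower calls numbered 3.

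Surface proteins of later B cells rose in 16 of 24 cases and fell in 4, with a median of 2.02. These are 66.7% and 16.7%, against 24.0% and 27.3% of all genes. Il2ra, the CD25 that marks pre-B cells, was at 8.99 and 6.76 CPM in pro-B and 144, 120.4 and 151 CPM in small pre-B (log2 fold change 4.14 ± 0.31; adjusted p = 1.29e-05). Cd38 rose from 65.1 and 72.8 CPM to 695, 670.3 and 835 CPM and the complement regulator Cd55 from 14.9 and 10.5 CPM to 76.9, 106 and 108 CPM. Cd40, through which T cells help B cells, rose from 3.66 and 2.22 CPM to 27.7, 39.1 and 52.8 CPM, and the inhibitory lectin Cd22 rose by 1.98. Each of these was higher in every small pre-B library than in either pro-B library. Markers of the most mature B cells were uneven between the small pre-B libraries. Cr2 (CD21) was at 1.15, 6.24 and 5.03 CPM and Fcer2a (CD23) at 2.08, 28 and 25.7 CPM, with the first library lowest for both. Fcer2a, at 3.0 and 2.18 CPM in pro-B, was not called with edgeR on all libraries (adjusted p = 0.096). It was called with the KO groups fitted alone (adjusted p = 0.038), without the second small pre-B control (0.031) and without the first small pre-B KO library (0.043). Cr2, at 0.437 and 0.456 CPM in pro-B, was called with edgeR on all libraries (log2 fold change 3.21; adjusted p = 0.0056).

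Of 17 genes that place cells in the marrow or let them leave, 6 were higher and 8 lower (35.3% and 47.1%, against 24.0% and 27.3% of all genes). S1pr1, the receptor for the exit signal sphingosine 1-phosphate, rose from 23.3 and 13.8 CPM to 207, 211 and 259.5 CPM (log2 fold change 3.61 ± 0.31). The chemokine receptor Ccr7 rose from 16.8 and 13.3 CPM to 82.4, 80.5 and 91.2 CPM and Cxcr4, which retains cells in the marrow, by 1.34. Ccr9, a homing receptor for gut and thymus, fell from 477 and 472 CPM to 1.04, 5.77 and 0.932 CPM (log2 fold change -7.46 ± 0.65). Selplg, the selectin ligand, fell by 2.41 on the log2 scale. Ccr9 is also carried by plasmacytoid dendritic cells, so the marker values above stand beside its fall.

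The BCL2 family, which sets the threshold for cell death, gave calls in both directions: 4 of 15 rose and 6 fell (26.7% and 40%, against 24.0% and 27.3% of all genes). Bcl2l1 (BCL-XL), a survival protein, was at 54.6 and 42.3 CPM in pro-B and 232, 222 and 308 CPM in small pre-B (log2 fold change 2.39 ± 0.21; adjusted p = 2.63e-05). The killers Bmf and Bcl2l11 (BIM) rose too, Bmf from 43.2 and 41.4 CPM to 384, 434 and 522 CPM and Bcl2l11 by 1.22. Bcl2 was lower, at 66 and 64.7 CPM and 12.3, 35 and 14.6 CPM, but its call (adjusted p = 0.043) was lost when any 1 of 7 libraries was left out, with adjusted p up to 0.13. Bid, a link between death receptors and mitochondria, fell by 1.09 on the log2 scale.

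Mitotic genes fell as a group. Of 22 genes of the G2 and M phases, 21 fell and 0 rose (95.5% and 0%, against 27.3% and 24.0% of all genes), with a median of -1.74. Fewer of these falls passed under some alternatives, and 0 rose under any. Aurka, a spindle kinase, was at 89.9 and 89.7 CPM in pro-B and 15.9, 21.9 and 10.8 CPM in small pre-B (log2 fold change -2.47 ± 0.25; adjusted p = 6.32e-05). Ccnb1 (cyclin B1) was at 79.8 and 69.2 CPM and 18.3, 21.6 and 15.1 CPM (log2 fold change -2.02 ± 0.21; adjusted p = 6.25e-05). Its kinase Cdk1 was at 144 and 141 CPM and 43.3, 45.9 and 17.2 CPM, and Plk1, the polo kinase, at 159 and 146 CPM and 19.8, 31.1 and 10.4 CPM. In all of these the third small pre-B library was the lowest. Cdc20, which activates the anaphase-promoting complex, and Tpx2, a spindle factor, had log2 fold changes of -1.49 and -1.77. Top2a, the topoisomerase that untangles chromosomes, was the exception with edgeR on all libraries. It was at 1043 and 928 CPM and 574, 602 and 169 CPM (log2 fold change -1.14 ± 0.50; adjusted p = 0.085). DESeq2 called Top2a lower (log2 fold change -1.18; adjusted p = 0.033). Kif11, a spindle motor, and the proliferation marker Mki67 fell (log2 fold changes -1.73 and -1.30), and each lost its call without the first or the second pro-B library (adjusted p up to 0.073 and 0.089).

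The promoters of Cdc20, Cdk1 and Kif11 are shown because they carry the letters shared by most genes of the mitotic list, and that of Mcm6 as the contrast from the replication list. Each is the 150 bases before the start from RefSeq (GRCm38.p6), 5′ to 3′ on the gene's strand, at chr4:118437344-118437493 (minus strand), chr10:69352913-69353062 (minus), chr19:37376232-37376381 (plus) and chr1:128359706-128359855 (minus). Capitals mark the CHR element (TTTGAA), the NF-Y box (CCAAT) and, in Mcm6, the E2F letters TTTGGCGC with NF-Y boxes, each on either strand.
Cdc20: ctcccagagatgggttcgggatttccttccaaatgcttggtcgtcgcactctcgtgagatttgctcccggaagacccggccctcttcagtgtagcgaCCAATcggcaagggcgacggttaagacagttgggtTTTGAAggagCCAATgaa
Cdk1: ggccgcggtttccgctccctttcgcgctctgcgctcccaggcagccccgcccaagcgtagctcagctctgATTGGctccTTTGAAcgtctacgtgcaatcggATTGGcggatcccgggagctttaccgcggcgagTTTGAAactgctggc
Kif11: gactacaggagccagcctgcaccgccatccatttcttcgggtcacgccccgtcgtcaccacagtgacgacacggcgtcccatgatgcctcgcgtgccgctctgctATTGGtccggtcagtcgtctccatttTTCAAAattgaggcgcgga
Mcm6: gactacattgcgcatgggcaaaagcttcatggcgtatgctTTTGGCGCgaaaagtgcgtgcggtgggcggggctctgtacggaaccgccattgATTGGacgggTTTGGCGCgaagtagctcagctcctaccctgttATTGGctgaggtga
The CHR letters stood in 12 of 17 matched promoters of the G2 and M list (70.6%) against 12% of all 10381, and CCAAT in 15 of 17 (88.2%) against 38.6%. Among all genes that fell by at least 1 on the log2 scale these shares were 14.1% and 35.4%, and among those that rose 10.4% and 38.5%. CCAAT also stood in 12 of 13 matched promoters of the cholesterol list. Of 17 matched promoters of the replication list, 2 held the CHR letters (11.8%), 13 held CCAAT, 5 held TTTGGCGC and 4 held the other E2F form TTTCCCGC. Those E2F forms stood in 1.02% and 2.01% of all promoters and in 0 of the 17 mitotic ones.

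Most genes of DNA replication did not pass the test. Of 22, 2 fell and 1 rose (9.09% and 4.55%, against 27.3% and 24.0% of all genes). The other 19 were not called, and the median was -0.25. DESeq2 and limma-voom each called 4 lower. Mcm6, a subunit of the replicative helicase, was at 301 and 286 CPM in pro-B and 351, 287 and 169 CPM in small pre-B (log2 fold change -0.13 ± 0.26; adjusted p = 0.71). Pcna, the clamp of the polymerase, was at 228 and 195 CPM and 301, 245 and 166 CPM (log2 fold change 0.17 ± 0.23; adjusted p = 0.58). For both genes the first small pre-B library was at or above pro-B and the third below it. Tyms, which makes thymidylate, fell from 51.2 and 49.6 CPM to 20.6, 17.7 and 6.66 CPM (log2 fold change -1.75 ± 0.37). Rrm1, a ribonucleotide reductase subunit, fell by 0.76 on the log2 scale, but lost its call without any 1 of the 4 pro-B libraries, controls included (adjusted p up to 0.16). The calls depended on the small pre-B library used: 4 genes of the list were lower without the first library, and 14 were lower with the third alone. The summed level of the list was 3011 and 2760 CPM in pro-B and 3127, 2603 and 1466 CPM in small pre-B, while that of the mitotic list was 6717 and 6198 CPM and 2903, 2939.9 and 1272 CPM.

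**Figure D3:**
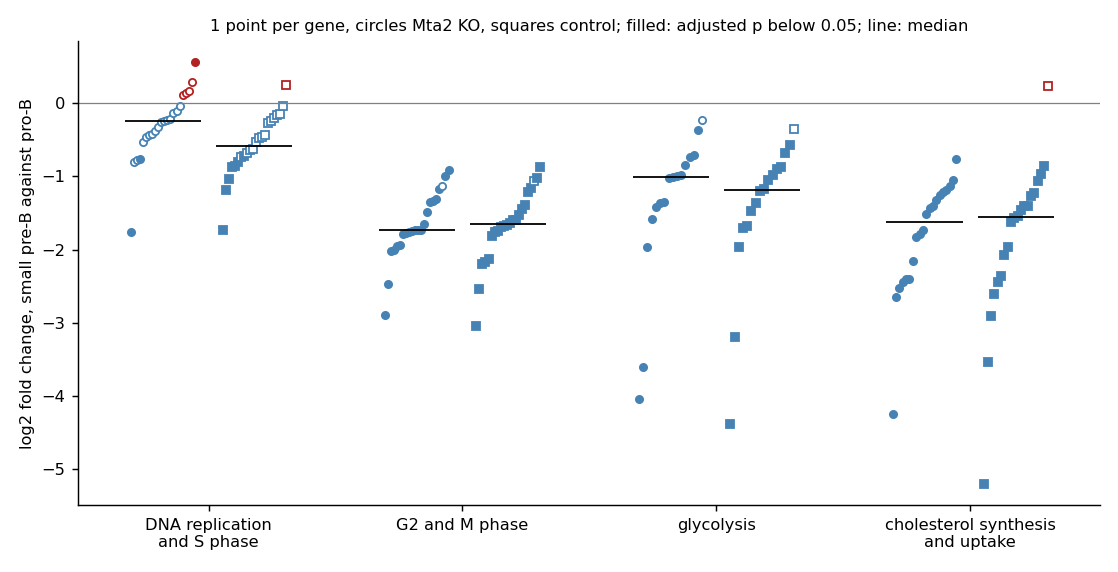
Log2 fold changes of small pre-B against pro-B for each gene of 4 lists; circles are Mta2 KO, squares controls, filled points have an adjusted p below 0.05 and lines are medians. In the KO the mitotic, glycolytic and cholesterol genes lie below 0, with medians of -1.74, -1.01 and -1.63, while the replication genes lie around their median of -0.25.

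Regulators of entry into the cycle moved singly. Ccnd1 (cyclin D1) fell from 154 and 176 CPM to 3.92, 5.69 and 4.29 CPM (log2 fold change -5.14 ± 0.25; adjusted p = 2.40e-06). Ccnd2 (cyclin D2) was at 102 and 106 CPM and 82.8, 143 and 58.1 CPM, overlapping and not called. The kinase inhibitor Cdkn1b (p27) rose from 83 and 74.2 CPM to 226, 238 and 305 CPM, and the retinoblastoma gene Rb1 by 1.48. Of the other inhibitors, Cdkn2c and Cdkn2d were lower (log2 fold changes -0.92 and -0.70), and Cdkn1a and Cdkn1c were not called. E2f2, an E2F factor, rose by 1.92. Of 16 FOXO targets and quiescence factors 9 rose and 3 fell (56.25% and 18.75%, against 24.0% and 27.3% of all genes). Btg1, an antiproliferative gene, went from 159 and 176 CPM to 693, 1025 and 1188 CPM (log2 fold change 2.53 ± 0.33), and Ccng2 and the sestrins Sesn3 and Sesn1 rose by 1.56, 1.27 and 0.98. The falls of that list numbered 1 without the first or the second pro-B or the third small pre-B library. Over the 20 G1 genes 3 rose and 6 fell (15% and 30%, against 24.0% and 27.3% of all genes), and the lower calls numbered 2 without either the first or the second pro-B library.

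Of 19 MYC network genes and targets, 9 fell and 4 rose (47.4% and 21.1%, against 27.3% and 24.0% of all genes). Myc was at 93.4 and 101 CPM in pro-B and 17.3, 28.8 and 12 CPM in small pre-B (log2 fold change -2.32 ± 0.48; adjusted p = 0.0032). Mycl1 fell from 83.9 and 93.3 CPM to 4.15, 5.49 and 5.41 CPM. Mxd4, an antagonist of MYC, rose by 1.46, and Mxd1, of the same family, fell by 1.41 on the log2 scale. The list's higher calls numbered 2 without the first or the second pro-B library.

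Genes that make cholesterol and burn sugar were lower in small pre-B cells. All 20 genes of cholesterol synthesis and uptake fell, against 27.3% of all genes, with a median of -1.63. Fdps, which makes farnesyl pyrophosphate, was at 56.8 and 69.7 CPM in pro-B and 11.1, 12.1 and 12.7 CPM in small pre-B (log2 fold change -2.40 ± 0.15; adjusted p = 5.74e-06). Sc4mol, a sterol oxidase, the squalene epoxidase Sqle and Hmgcs1, an entry enzyme, had log2 fold changes of -2.53, -2.65 and -1.43. The factor that switches on the pathway, Srebf2, was at 348 and 380.0 CPM and 177, 173 and 132 CPM. The groups were apart for all 20 genes, as they were for 75.9% of all genes tested. Leaving out any 1 library left 19 or 20 of the falls in place.

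In glycolysis 15 of 16 genes fell (93.75%, against 27.3% of all genes), with a median of -1.01. Slc2a3, a glucose transporter, went from 142 and 174 CPM to 13.3, 17.2 and 8.20 CPM (log2 fold change -3.61 ± 0.27; adjusted p = 1.30e-05). Hk2, which traps glucose in the cell, went from 32.4 and 41.7 CPM to 7.56, 11.1 and 9.74 CPM, Gpi1 from 602 and 760.3 CPM to 241, 226 and 216 CPM, and Pkm, the pyruvate kinase, from 582 and 699 CPM to 285, 242 and 227 CPM. Ldha, the lactate dehydrogenase, was at 287 and 359 CPM and 124, 126 and 114 CPM. Myeloid cells also express these genes, and the myeloid list sums fell with them.

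Ribosomal and respiratory genes were mostly not called. Of 78 cytoplasmic ribosomal protein genes 16 fell and 6 rose (median -0.14), and of 78 genes of the respiratory chain 17 fell and 6 rose (median -0.07). Both shares of falls, 20.5% and 21.8%, were below the 27.3% of all genes, and both shares of rises, 7.69%, were below 24.0%. Rps2 fell by 1.08 on the log2 scale, from 583 and 591 CPM to 285, 277 and 269 CPM, and Ndufv3, of respiratory complex I, from 74.7 and 81.1 CPM to 41.5, 38 and 38.3 CPM. Ribosomal protein genes have many processed copies, so their counts can be shared with them. Leaving out 1 library gave between 5 (without the second pro-B library) and 26 ribosomal falls (without the third small pre-B control), with 10, 10 and 8 without the first pro-B, the first small pre-B or the second small pre-B library, and the libraries with Y-linked RNA alone gave 4. The respiratory falls numbered 9, 6 and 8 without the first pro-B, the second pro-B or the second small pre-B library. The ribosomal rises numbered 1 without the first or the second pro-B library, and the respiratory rises 1 and 3.

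**Figure D4:**
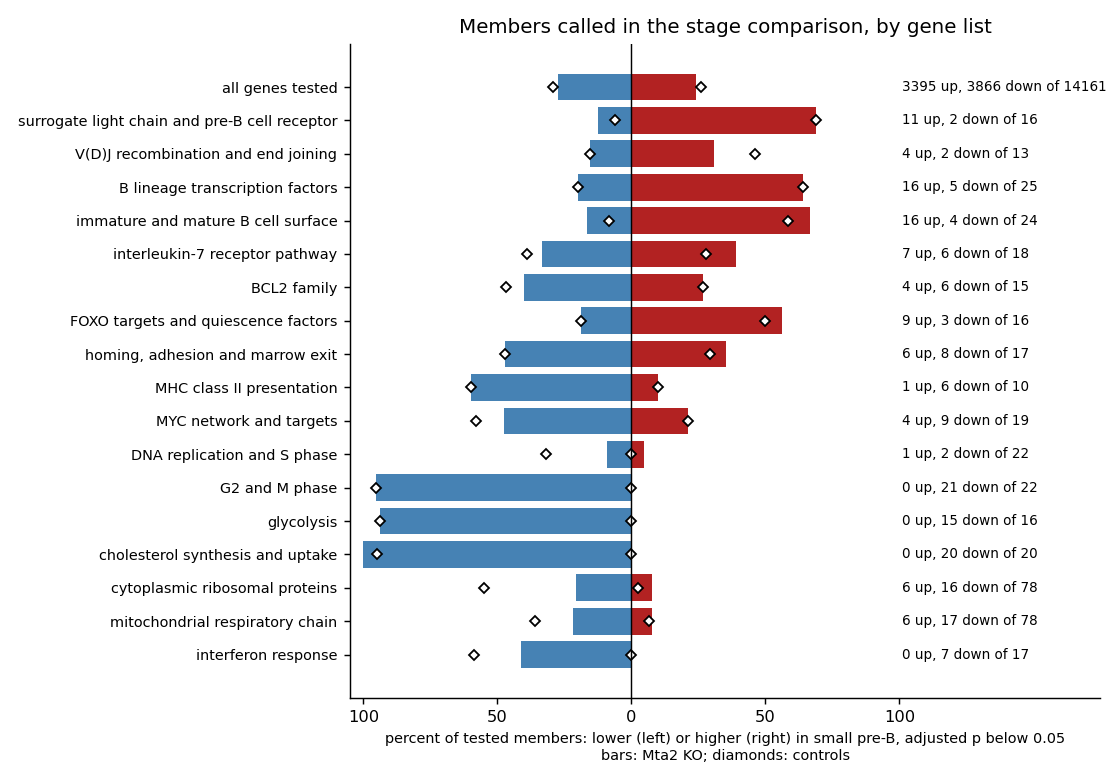
Percent of the tested members of each list that were higher (right) or lower (left) in small pre-B with an adjusted p below 0.05; bars are Mta2 KO, diamonds controls. The KO bars reach 100% to the left for cholesterol genes and 95.5% for mitotic genes, against 27.3% for all genes tested.

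In MHC class II presentation 6 of 10 genes fell and 1 rose (60% and 10%, against 27.3% and 24.0% of all genes). H2-DMa, which loads peptides, went from 126 and 154 CPM to 6.86, 16.6 and 12.7 CPM (log2 fold change -3.53 ± 0.29). Cd74, the invariant chain, was at 1176 and 1100.3 CPM and 159.7, 589 and 549 CPM, with the first small pre-B library the lowest. Its call (adjusted p = 0.022) was lost without the first or the second pro-B library (adjusted p = 0.090 and 0.076). H2-Ob, a B cell modulator of peptide loading, was the member that rose, from 53 and 41.9 CPM to 287, 270.1 and 439 CPM. Of 17 interferon response genes 7 fell (41.2%, against 27.3% of all genes) and 10 did not pass. The falls numbered 4 without the first pro-B library, and 5 without the second pro-B or the third small pre-B library. Irf7, the interferon regulator that plasmacytoid dendritic cells hold at a high level, went from 196 and 142 CPM to 15.7, 22 and 18.6 CPM (log2 fold change -3.17 ± 0.27; adjusted p = 2.39e-05), and Mx1 from 56.3 and 47 CPM to 4.50, 13.3 and 4.38 CPM. The dendritic marker sums were lower in small pre-B as well.

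Stress and immediate early genes are set against 24.0% higher and 27.3% lower among all genes. Of 13 p53 targets 4 rose and 2 fell (30.8% and 15.4%): Trp53inp1 rose from 159 and 147 CPM to 1111, 1229 and 1500.3 CPM, Gadd45a by 1.62 and Mdm2, the p53 ubiquitin ligase, by 0.70, while Sesn2 fell by 1.60 on the log2 scale. Of 18 immediate early genes 4 rose and 3 fell (22.2% and 16.7%). Dusp2, a MAP kinase phosphatase, rose by 2.66, Jund by 1.97 and Zfp36 by 0.67, and Fosl2 fell from 43.7 and 42.8 CPM to 1.56, 6.60 and 0.606 CPM. The immediate early falls numbered 5 without the third small pre-B control or the second small pre-B KO library, and 1 without the second pro-B library.

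Of 12 Notch receptors and targets 4 rose and 6 fell (33.3% and 50%, against 24.0% and 27.3% of all genes). Notch3 went from 44.7 and 40.1 CPM to 1.67, 1.34 and 1.07 CPM and Dtx4 from 25.7 and 35.6 CPM to 2.13, 3.16 and 1.17 CPM, while Dtx1 rose by 2.58. Higher Notch calls numbered 2 without the second pro-B library. Of 7 plasma cell markers 4 rose and 2 fell (57.1% and 28.6%, against 24.0% and 27.3% of all genes). Igj, the joining chain, fell from 764 and 1131 CPM to 4.73, 4.35 and 0.979 CPM, and Sdc1 (CD138) rose by 1.16. The 4 rises of that list became 2 without the second pro-B library. Of 51 replication-dependent histone genes 2 rose and 0 fell (3.92% and 0%, against 24.0% and 27.3% of all genes), with a median of -0.03. Without the third small pre-B control, whose histone RNA stood apart, 12 rose.

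Of 15 NuRD subunits 4 rose and 3 fell (median -0.03), which is 26.7% and 20% against 24.0% and 27.3% of all genes. Hdac2, a deacetylase, was at 99.3 and 95.6 CPM in pro-B and 135, 121 and 138 CPM in small pre-B (log2 fold change 0.43 ± 0.10; adjusted p = 0.0051, and 0.056 without the second pro-B library). Mta1, the relative of Mta2, was lower, at 135 and 130.1 CPM and 79.4, 72.6 and 51.1 CPM (log2 fold change -0.97 ± 0.26; adjusted p = 0.013). Its adjusted p was 0.064 without the first pro-B library and 0.056 without the second. Chd5 was under 2 CPM everywhere and fell by 2.56, and it was not called without the second pro-B library (adjusted p = 0.054). The 4 rises became 1 and 0 without the first and the second pro-B library, and 2 without either pro-B control or without the first or the second small pre-B KO library, and the 3 falls became 0 without the second pro-B library. Of 18 polycomb, DNA methyltransferase and TET genes 8 rose and 1 fell (44.4% and 5.56%, against 24.0% and 27.3% of all genes). Rnf2, a polycomb ubiquitin ligase, rose from 70.5 and 71.6 CPM to 173, 172 and 193 CPM, and Jarid2, Cbx7 and Dnmt3a rose by 1.09, 1.01 and 0.69.

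The control comparison, with no library in common, gave 3687 genes higher (26.0%) and 4160 lower (29.4%) in small pre-B cells. Of the genes called in either comparison 6094 were called in both, and all but 3 of these had the same direction. The 6091 with the same direction were 83.9% of the KO calls and 77.6% of the control calls. Over all genes tested, 87.5% had the same sign in both comparisons, and the log2 fold changes had a Pearson r of 0.87 and a Spearman rho of 0.88 across genes, which are not independent replicates. The median absolute log2 fold change was 0.66 in the KO and 0.73 in the controls. A gene called in the KO alone (1167) or in the controls alone (1753) had the same sign in the other comparison in 92.2% and 93.5% of cases. The comparisons share an estimate of the spread.

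The test of the difference between the stage effects called 0 of 14161 genes (0%) with edgeR's quasi-likelihood test, and 907 had an unadjusted p below 0.05, of which 428 were above control. DESeq2 called 58 and limma-voom 0. Without the second small pre-B control edgeR called 40 genes, without the third small pre-B control 1 and without the third small pre-B KO library 1. With edgeR on all libraries, the median SE of the difference was 0.31 on the log2 scale and the smallest adjusted p was 0.43. A difference as large as 4.41 (Cd3e) did not pass in that fit. Nor did any of the 51 histone genes, whose median difference was -6.11.

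Values are given for the 6 genes with the smallest p in each direction, none of which passed with edgeR on all libraries, while all 12 did with DESeq2 (adjusted p from 2.96e-06 to 0.0025). With 1 library left out, edgeR called Gpr4 (adjusted p = 0.016 without the third small pre-B control and 0.046 without the second), Notch3 and Slc46a3 (0.046 without the second small pre-B control) and Tenm4 (0.049 without the third small pre-B KO library). Tenm4, a teneurin, was at 3.02 and 2.66 CPM and 1.44, 1.30 and 0.466 CPM in the KO and at 11.1 and 13 CPM and 0.334, 0.242 and 0.341 CPM in controls. Its difference, KO minus control, was 3.87 ± 0.60 on the log2 scale (SE; unadjusted p = 1.12e-04; adjusted p = 0.43). Tmem119 was at 40.9 and 47.4 CPM and 7.44, 3.48 and 3.45 CPM against 13.3 and 15.9 CPM and 0.111, 0.201 and 0.0568 CPM, with a difference of 3.70 ± 0.63. In Tenm4, Tmem119, Notch3 and Peli2 the small pre-B KO libraries held more RNA than any small pre-B control. A count of 3 corresponded to 0.167, 0.121 and 0.0852 CPM in those controls, so their values for Tenm4, Tmem119 and Notch3 rest on few counts. In pro-B cells Tmem119 was higher and Tenm4 lower in the KO than in controls. Notch3 was at 37.7 and 28.7 CPM and 0.167, 0.322 and 0.114 CPM in controls (difference 2.42 ± 0.45; adjusted p = 0.47). Peli2, Cltb (clathrin light chain) and Rras2 (a RAS relative) differed by 2.40 ± 0.48, 1.30 ± 0.24 and 0.91 ± 0.17.

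In the other direction Slc46a3, a lysosomal transporter, was at 38.8 and 40.3 CPM and 1.96, 2.65 and 2.38 CPM in the KO and at 36.3 and 38 CPM and 6.97, 5.68 and 6.76 CPM in controls (difference -1.56 ± 0.22; adjusted p = 0.43). Gpr4, a proton-sensing receptor, was at 64.2 and 67.6 CPM in KO pro-B and 6.76 and 6.06 CPM in control pro-B, and at 0.519, 0.751 and 0.652 CPM and 0.613, 0.685 and 2.44 CPM in small pre-B (difference -4.37 ± 0.70). For Gpr4 the pro-B libraries of the genotypes were apart, while the small pre-B libraries overlapped. Klc3, Zmpste24, Kcnj10 and Olfml2b differed by -1.63 ± 0.26, -1.11 ± 0.18, -2.95 ± 0.52 and -1.23 ± 0.22, with adjusted p from 0.43 to 0.47.

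Hvcn1 and Dll1 were called in opposite directions. Hvcn1, a proton channel of B cells, was at 331 and 332 CPM and 262, 235 and 254 CPM in the KO (log2 fold change -0.40 ± 0.12) and at 291 and 233 CPM and 345, 369.6 and 399.7 CPM in controls (log2 fold change 0.50 ± 0.12). Dll1, a Notch ligand, changed by 1.25 ± 0.46 in the KO and -1.42 ± 0.44 in controls. The test of their differences gave adjusted p of 0.47 and 0.60. With DESeq2 the adjusted p of these differences were 0.0013 and 0.019. Both KO calls were lost without the first or the second pro-B KO library or the second small pre-B KO library, that of Dll1 also without either pro-B control or the third small pre-B KO library, and over all alternatives but the fold threshold the adjusted p reached 0.13 and 0.27.

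With edgeR on all libraries, Kit, Ccnd2, Ikzf2 and the T cell gene Cd3e fell in the controls and were not called in the KO. No difference passed the adjustment, and Ikzf2 was called lower in the KO without the second small pre-B KO library. Kit was at 37.6 and 43.9 CPM and 14.9, 10.9 and 3.64 CPM in controls (log2 fold change -2.07 ± 0.49; adjusted p = 0.0061), and its difference from the KO was 1.87 ± 0.70 (unadjusted p = 0.024; adjusted p = 0.71). Ccnd2 changed by -2.25 ± 0.61 in controls (difference 2.11 ± 0.87; adjusted p = 0.74) and Ikzf2 by -3.14 ± 0.45 (difference 2.64 ± 0.62; adjusted p = 0.58). Igll1 and Vpreb1 had control changes of -0.83 ± 0.45 and -0.24 ± 0.57, neither of them called, and differences of 1.45 ± 0.65 and 1.33 ± 0.81 (adjusted p = 0.77 and 0.79). Cd3e changed by -5.20 ± 0.70 in controls, from 7.62 and 8.85 CPM to 0.446, 0.282 and 0.0284 CPM (difference 4.41 ± 0.92; adjusted p = 0.53). T cell markers as a list fell in 13 of 13 cases in controls and in 6 of 13 in the KO, against 29.4% and 27.3% of all genes. Of the 13 differences 6 had an unadjusted p below 0.05, against 907 of 14161 over all genes. The T cell sums were 491 and 564 CPM and 56, 77.9 and 22.6 CPM in controls. Cd3d was at 3.11, 10.6 and 4.61 CPM in the small pre-B KO libraries and 0.947, 0.564 and 1.05 CPM in the small pre-B controls. Cd8a, a T cell co-receptor, was at 0.634, 5.33 and 1.17 CPM and 0.780, 0.282 and 0.114 CPM in the same libraries. The second small pre-B KO library was the highest for Cd3e, Cd3d, Cd8a and Cd4, and the part of T cells in these values was not tested.

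Hsd17b7, a sterol enzyme, was the cholesterol gene that fell in the KO and was not called in controls (17.9 and 13.4 CPM and 18.3, 13.9 and 22.9 CPM; difference -1.37 ± 0.32; adjusted p = 0.58). In controls 21 of 22 mitotic genes fell, 15 of 16 glycolytic genes, 19 of 20 cholesterol genes and 7 of 22 replication genes, and 11 of 16 pre-B cell receptor genes rose. Over all genes tested 29.4% fell and 26.0% rose in controls. Ribosomal protein genes fell in 43 of 78 cases in controls, with a median of -0.38 against -0.14 in the KO. Of their 78 differences 7 had an unadjusted p below 0.05, against 907 of 14161 over all genes. Histone genes rose in 28 of 51 cases in controls (median 6.44), where the summed histone level was 263, 333 and 10154 CPM in the 3 small pre-B libraries and only the third was high. In the KO the sums were 159 and 139 CPM in pro-B and 409, 270.3 and 401 CPM in small pre-B.

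**Figure D5:**
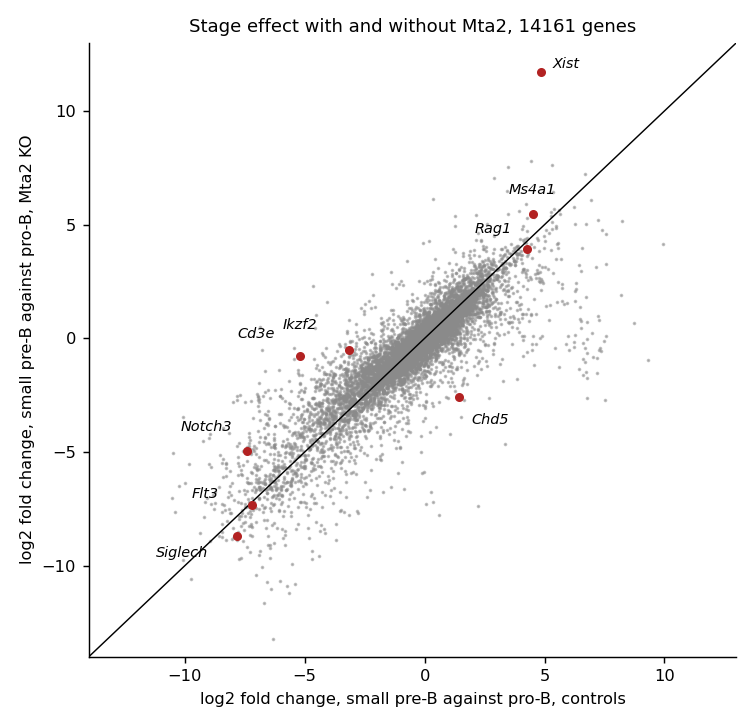
Log2 fold change of small pre-B against pro-B in the Mta2 KO (vertical) and in controls (horizontal) for 14161 genes, with the line of equality. Most genes lie along the line (Pearson r 0.87). Genes far to the right and near 0 on the vertical axis include the histone genes that are high in the third small pre-B control.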

How the data were processed

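RNA-seq of sorted bone marrow cells was used from 5 Mta2 KO and 5 control libraries, grouped by the cell type and genotype in the sample labels. Raw read counts per gene were used as deposited, with no normalization. featureCounts 1.4.3-p1 made them from exons of an mm10 gtf, per the file headers, and its command set no strand. The labelled kit is stranded, so overlapping genes on opposite strands are less certain. CASAVA 1.82, STAR and mm9 appear in the submitters' processing notes. Gene positions are in mm10, as in the files.

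Counts were analysed with edgeR 4.0.16 in R 4.3.3: filterByExpr by group (minimum count 10, minimum total 15), TMM scaling, and the robust quasi-likelihood F-test over all 10 libraries with 1 coefficient per group, two-sided, with Benjamini-Hochberg adjustment over all genes tested. The prior count for fold changes was 0.125. The contrasts were the KO stage effect, the control stage effect and their difference. The fit was tested on simulated counts in which few genes changed, as many up as down. That test does not show how the fit behaves where many genes change, as in these data. Intervals of count ratios are exact (Clopper-Pearson, 95%). Without molecular identifiers, reads are not independent molecules, and intervals and floors hold for counting error alone. Levels were summed over the tested members of a list. Older symbols were matched through RefSeq synonyms (Sfpi1, Mycl1, Sc4mol, Igj).

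The comparison, the gene lists, the motifs and the rules were chosen with earlier results of these data known, so no list was tested. The genes named are Mta2, 15 fixed genes of early B cells, the 12 largest changes in each direction (at least 10 CPM in the higher group, groups apart, predicted and small RNA genes left out), from each list the 4 lowest p, called or not, the 6 smallest p of the difference in each direction (at least 2 CPM), and genes called in opposite directions. Further members named were chosen after their values were seen, as were the promoters shown. Some genes that meet these rules are not reported here. Alternatives were DESeq2 size factors, upper-quartile scaling, DESeq2 1.42.0, limma-voom (limma 3.58.1), other count filters, the compared groups alone, a fold threshold, leaving out each library, the libraries with Y-linked RNA alone, and a replicate block.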

Additional observations from a re-analysis of the deposited data

How the results depend on the processing

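Among calls that also changed by at least 1 on the log2 scale, 1530 genes were higher in the KO comparison and 1729 in the control comparison. Leaving out 1 library gave between 2032 and 4184 higher calls in the KO comparison, and between 2279 and 3848 in the control comparison. In the difference, DESeq2 called 20 genes above and 38 below control, and leaving out 1 library gave 0 to 31 above and 0 to 9 below. The Pearson r across genes was 0.71 with no count filter and 0.77 with the libraries with Y-linked RNA alone. The sign changed in a few genes. Leaving out 1 library gave log2 fold changes from -0.57 to 0.034 for Kit, from -0.11 to 0.0022 for Rras2, from -0.36 to 0.12 for Mcm6, from -0.039 to 0.37 for Pcna and from -0.56 to 0.12 for Ccnd2. The range was -6.49 to 0.083 for Kdm5d and -6.97 to 0.15 for Eif2s3y. With the libraries with Y-linked RNA alone, Pcna was at -0.35, Uty at 0.80, Kdm5d at 1.06 and Eif2s3y at 1.13. Of 200 named genes called, 169 kept their call under every alternative but the fold threshold. Many of the named genes were chosen for a low p or a large change in these data, so 169 of 200 does not describe all calls. Over all genes tested, 7261 were called in the KO comparison. Leaving out 1 small pre-B KO library kept between 6198 and 6364 of these calls. Leaving out 1 pro-B KO library kept fewer. The cause of these changes in sign and in calls was not tested. No paired analysis was possible because the numbers in the titles do not cross the stages. For the difference, a replicate block on those numbers called 0 genes, with 1035 at an unadjusted p below 0.05. The file header of the third small pre-B control carries another number than its title, so its place in the block is uncertain. The title was used. Totals of 17805507 counts and more leave 3 counts at 0.173 CPM or less in the KO libraries, which limits ratios for genes near 0 in small pre-B cells.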
